A study of Mus musculus with 17 samples.

Results

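The 43 genes described here encode parts of the primary cilium and of intraflagellar transport (IFT), and they were taken by name from a list of cilium genes, by a rule that used no measured value. All 43 were listed in all 17 RNA-seq libraries of the study, out of 18836 genes listed in at least 1 library, and all 43 passed the filter on low values (a mean of at least 1 FPKM, a level corrected for transcript length and library depth, over the 16 cultured libraries). They fell into 7 functional groups: 14 IFT-B genes, 6 IFT-A genes, 2 dynein-2 genes, 7 BBSome genes, 2 genes of the BBS chaperonin, 10 transition zone genes and 2 genes of the ciliary membrane.

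The primary cilium is a single, non-motile antenna that grows from the mother centriole of a resting cell and is taken down before the cell divides. IFT-B carries cargo out to the tip with kinesin-2, and IFT-A with dynein-2 carries it back. The BBSome moves membrane proteins in and out of the cilium, and the transition zone is the gate at its base. In the retina the photoreceptor outer segment is a modified cilium, and mutations in many of these genes cause retinal degeneration. Hedgehog signalling in vertebrate cells runs through the primary cilium.

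The cells were mouse neural retinal progenitor cells (mNRPCs), a passaged culture started from the retina of adult C57BL/6 mice. They were kept in a base medium alone (BM), in BM with basic fibroblast growth factor (B), in BM with CHIR99021, an inhibitor of glycogen synthase kinase 3 that activates Wnt signalling (C), or in BM with both (BC), and RNA was taken on days 1, 3, 5 and 7. Each treatment and day had 1 library, and 1 further library was labelled day 0. The study describes day 0 both as the control cells in BM and as the state before treatment, so what a difference from it compares is not settled. No treatment and day was replicated, so the spread in every test below is that of the libraries around a model, and it may be partly technical. In the tests over days 1 to 7, that model let the effects of bFGF, CHIR99021 and day add up. In the tests of single days, of differences between days and of changes over days, bFGF had a separate effect on each day. CHIR99021 had 1 common effect there, so the spread came from the 2 libraries of a day that shared a bFGF state. The comparison of interest was whether the genes of the cilium differed between the cultures without bFGF, in which proliferation genes fell, and those with it.

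Total expected counts lay between 17571973 and 19428744 per library. The scaling factors that edgeR's TMM method gave to the B and BC libraries on days 5 and 7 were 0.75 to 0.82, against 1.08 to 1.13 in BM and C, and library totals without them moved the median log2 fold change of all 11272 tested genes by -0.29 over days 1 to 7 and to -0.54 on day 7. Of the progenitor markers, Pax6, Six3, Sox2 and Nes were detected in every library, and Rax and Six6 never reached 0.1 FPKM. The summed level of the 8 progenitor markers had a median of 316.5 FPKM without and 106 FPKM with bFGF. Of them 4 were tested, and 3 were lower and 0 higher with bFGF, where 33.9% of all tested genes were lower. Of the 3 tested retinal neuron markers, 1 was lower and 1 higher. The 8 photoreceptor markers stayed below 1 FPKM in every library. Of the 6 fibroblast and pericyte markers, the summed level was 16.1 to 163 FPKM (median 108) without bFGF and 7.76 to 38.7 FPKM (median 10.9) with it, 4 were tested and all 4 were lower with bFGF. Lum never reached 1 FPKM, and Pdgfrb, a pericyte receptor, had a median of 86.5 FPKM without and 8.25 FPKM with bFGF. The part of any of these cell types in the differences below was not tested. In bulk RNA, fewer cells of a type and less RNA per cell cannot be told apart.

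More of the cilium genes were lower than higher with bFGF. Over days 1 to 7, B and BC against BM and C, 25 of 43 were lower, 4 were higher and 14 were not called (edgeR quasi-likelihood test, adjusted p under 0.05 over all 11272 tested genes). Of all tested genes 68.4% were called, 33.9% lower and 34.6% higher, against 58.1% and 9.3% of the cilium genes. The median log2 fold change was -0.42 for the cilium genes and 0.00 for all tested genes. With library totals in place of TMM, 34 were lower and 3 higher, against 5702 lower and 2245 higher among all genes, and the median of the cilium genes stayed 0.42 below that of all genes. Under that scaling 25 of the 25 falls and 3 of the 4 rises were still called in the same direction, and Arl13b turned.

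Falls were called in 6 of the 7 groups, all but the ciliary membrane. Of the IFT-B genes 8 fell and 2 rose, of the IFT-A genes 5 of 6 fell, and of the dynein-2 genes Dync2h1 fell and Dync2li1 was not called (log2 fold change -0.15, SE 0.08). Of the BBSome genes 5 of 7 fell, and both chaperonin genes fell. The transition zone was mixed, with 4 falls, 1 rise and 5 genes not called. In the ciliary membrane group Arl13b was the 1 gene called, and Tulp3, which brings receptors into the cilium with IFT-A, was not called (-0.04, SE 0.07).

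**Figure D1:**
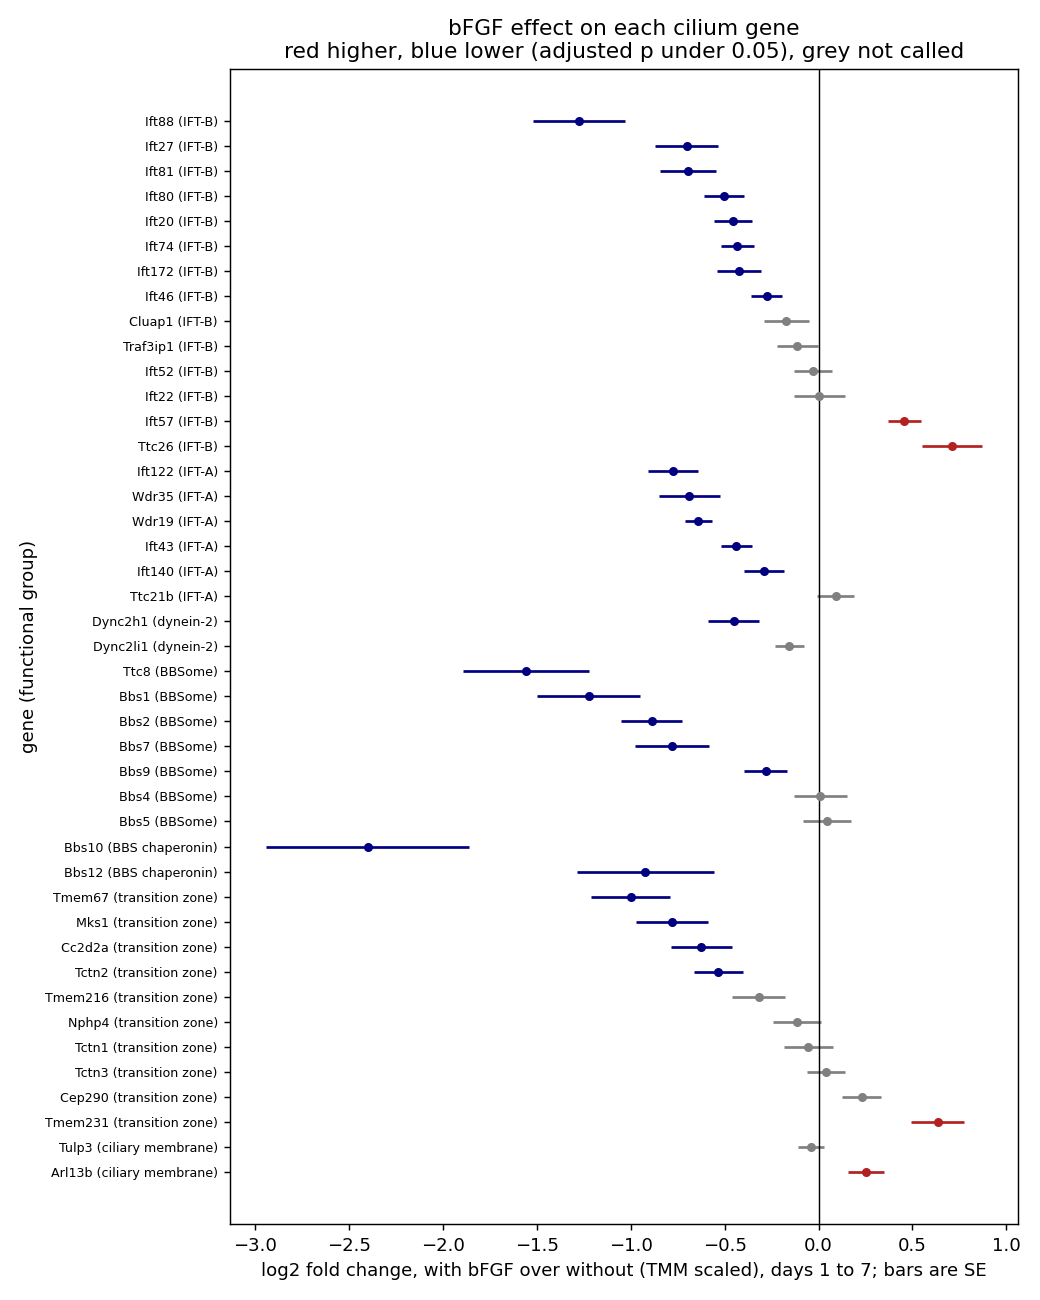
Log2 fold change of each of the 43 cilium genes, B and BC over BM and C across days 1 to 7 (x axis, points, with SE bars from the edgeR fit), with genes on the y axis grouped by function. Blue points are the 25 genes called lower, red the 4 called higher, of which Arl13b turned to -0.03 with library totals, and grey the 14 not called; Bbs10 at -2.40 lies farthest to the left and Ttc26 at 0.71 farthest to the right among the 43.

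The largest fall was that of Bbs10 (gene ID 71769, GRCm38 chr10:111298679-111301736), which encodes a chaperonin-like protein that helps to assemble the BBSome. Its FPKM was 1.74, 2.74, 3.43 and 3.40 on days 1, 3, 5 and 7 in BM, and 1.56, 3.22, 2.68 and 2.86 in C. With bFGF it was 1.07, 1.11, 0.08 and 0.08 in B and 0.79, 1.51, 0.08 and 0.10 in BC, against 0.95 on day 0. Every library with bFGF was below every library without it. On days 5 and 7 the 4 libraries with bFGF held expected counts of 4, 4, 4 and 5, where BM and C held 135 to 173, so the size of the late fall rests on very few reads. The log2 fold change was -2.40 (SE 0.54, adjusted p = 0.0021) over days 1 to 7, and -4.74 (SE 0.34) on day 5 and -4.55 (SE 0.34) on day 7.

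Bbs12, the other chaperonin gene in the list, differed in its course. Without bFGF its lowest, median and highest FPKM over 8 libraries were 5.16, 5.94 and 7.31. With bFGF it stood at 6.76 and 7.05 on day 1 in B and BC, at or above the level without it, at 4.08 and 5.08 on day 3, and at 0.55, 1.26, 1.82 and 1.65 in B and then BC on days 5 and 7. The log2 fold change was -0.92 (SE 0.36, adjusted p = 0.038) over days 1 to 7 and -2.08 (SE 0.30) on day 5. That call over days 1 to 7 was lost without day 5 (-0.53, adjusted p = 0.23), without day 7 (-0.57, adjusted p = 0.27), or without any 1 of the 8 libraries of those days (adjusted p 0.059 to 0.095), while the call on day 5 alone had an adjusted p of 3.9e-05.

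Both chaperonin genes have 2 exons in the GENCODE M21 annotation, and each of the other cilium genes has at least 5. Among all 10885 tested genes with an exon count, the 594 with 1 or 2 exons stood at a median of -0.81 (log2 fold change) on day 5 and -0.78 on day 7, while the medians of the classes with more exons lay between -0.22 and 0.14 on those days. Bbs10 and Bbs12, with values of -1.93 to -4.74 on those days, lay below that median. Whether the difference between few-exon and other genes had a part in the fall of these 2 genes was not tested. The transcript length that the quantification assigned to Bbs12 also moved, from 3407 to 3787 bases without bFGF to 2875 to 3281 on days 5 and 7 with it, which raises its FPKM relative to its counts there.

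In the BBSome, a coat that sorts membrane proteins of the cilium, Ttc8 (BBS8; gene ID 76260, chr12:98920537-98983250) fell most. BM had 6.10, 7.38, 8.59 and 7.57 FPKM on days 1, 3, 5 and 7, and C had 5.60, 7.40, 7.41 and 6.59. B had 4.99, 2.57, 0.59 and 1.80 and BC had 3.97, 3.67, 0.52 and 1.28, all below the lowest library without bFGF. The fall over days 1 to 7 was -1.56 (SE 0.33, adjusted p = 0.0016), with the lowest point on day 5 (-3.37, SE 0.23) and a smaller difference on day 7 (-1.71, SE 0.20).

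Bbs1, another core subunit, had a median of 3.90 FPKM (1.59 to 4.62) without and 1.35 FPKM (0.48 to 3.45) with bFGF. The groups overlapped on day 1, and on each later day both libraries with bFGF lay below both without it. Its log2 fold change was -1.22 (SE 0.28, adjusted p = 0.0021). Bbs2 (-0.89, SE 0.16), Bbs7 (-0.78, SE 0.20) and Bbs9 (-0.28, SE 0.12) were the other falls. Bbs4 and Bbs5 were not called (0.01, SE 0.14, and 0.05, SE 0.13), and differences between subunits were not tested.

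In IFT-B, the largest fall was that of Ift88 (gene ID 21821, chr14:57424064-57517936), a subunit without which mouse cells form no proper cilium. It was measured at 3.56, 3.81, 4.53 and 4.77 FPKM in BM and 3.69, 3.93, 4.33 and 4.54 in C on days 1, 3, 5 and 7. The values in B were 2.76, 1.59, 0.55 and 1.09, and those in BC were 2.89, 2.19, 0.97 and 0.82. Again no library with bFGF reached the lowest library without it, and the difference widened from -0.25 (SE 0.18, not called) on day 1 to -2.23 (SE 0.21) on day 5, on the log2 scale. Over days 1 to 7 it was -1.27 (SE 0.25, adjusted p = 8.6e-04).

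Ift20, which also works at the Golgi, was the 1 further cilium gene with no overlap between the 8 libraries with bFGF (9.87 to 21.1 FPKM) and the 8 without (23.4 to 29.6 FPKM). With Bbs10, Ttc8 and Ift88 that makes 4 of 43 genes with every library below, where 4.44% of all tested genes had that pattern, and 0 with every library above, against 1.39%. A share of 4 in 43 is not far from that background. The other IFT-B falls were Ift27, Ift81, Ift80, Ift74, Ift172 and Ift46, between -0.70 and -0.28. Ift27 is a small GTPase that also serves the BBSome, and Ift74 and Ift81 together bind tubulin.

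**Figure D2:**
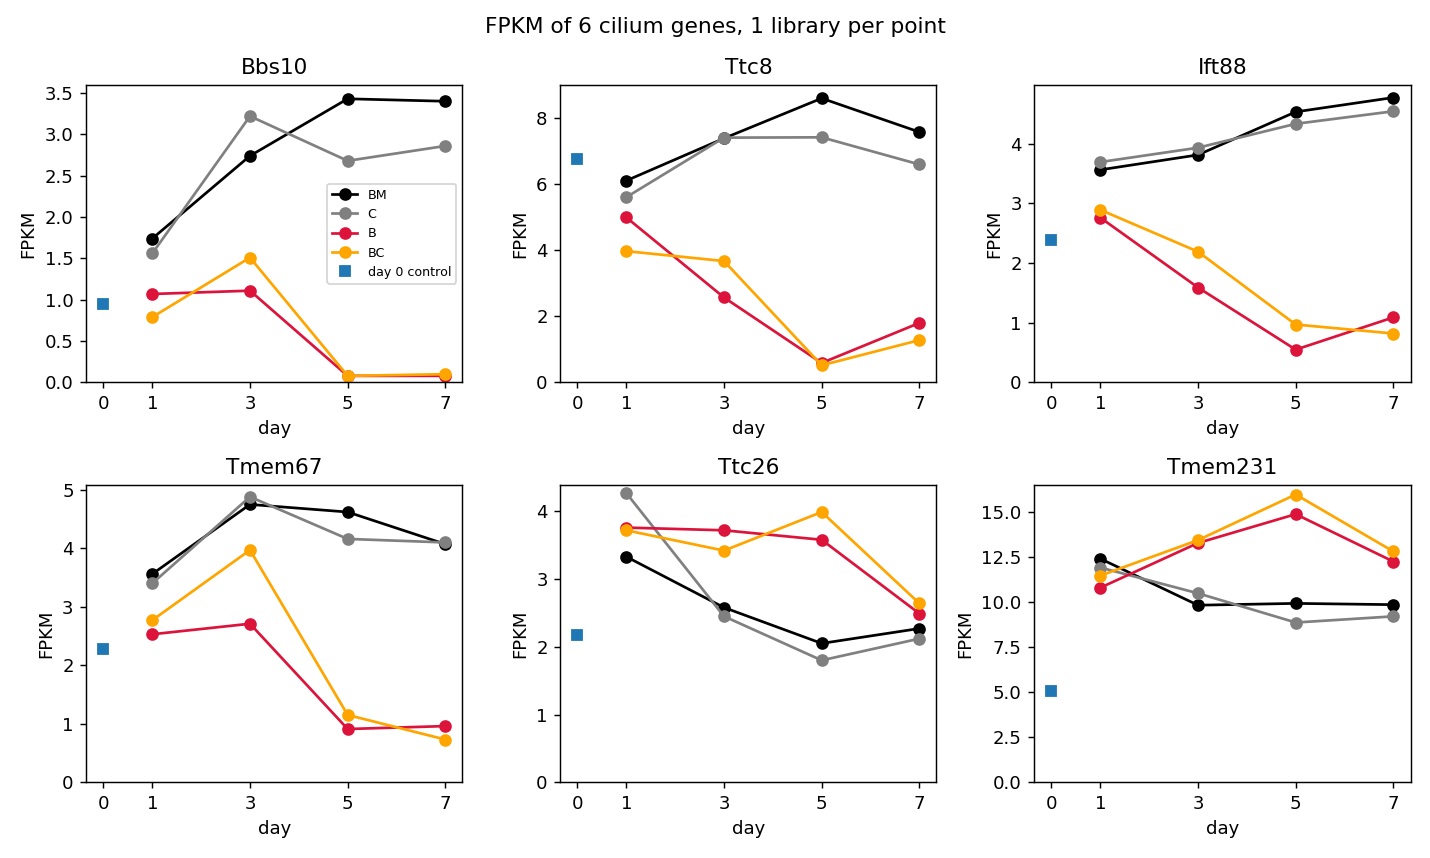
FPKM (y axis, from 0) on each day (x axis) for Bbs10, Ttc8, Ift88, Tmem67, Ttc26 and Tmem231, 1 library per point, with lines for BM (black), C (grey), B (red) and BC (orange) and a blue square for day 0. In the first 4 genes B and BC lie under BM and C on every day, with values of 0.08 to 1.80 on days 5 and 7; in Tmem231 they lie above from day 3, at 12.2 to 15.96 against 8.86 to 10.5.

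In IFT-A, which brings cargo back from the tip and admits receptors to the cilium, Ift122 fell most (gene ID 81896, chr6:115853379-115926699). Its lowest, median and highest FPKM were 7.30, 12.02 and 13.4 without bFGF and 3.27, 5.07 and 9.79 with it, and on days 5 and 7 the ranges were 11.3 to 13.0 and 3.27 to 4.16. The log2 fold change was -0.77 (SE 0.13, adjusted p = 5.0e-04). Wdr35, Wdr19, Ift43 and Ift140 also fell, between -0.69 and -0.29, and Wdr19 was 1 of the 2 cilium genes called on day 1 (-0.63, SE 0.11). Ttc21b was the exception (0.09, SE 0.10), and the sign of that small value depended on the scaling.

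The dynein-2 heavy chain gene Dync2h1, the motor that returns IFT trains, had a median of 2.66 FPKM (1.71 to 2.92) without and 1.55 FPKM (0.95 to 3.08) with bFGF. BC on day 3 was the highest of all 16 libraries, and on days 5 and 7 the groups did not overlap. Its log2 fold change was -0.45 (SE 0.13, adjusted p = 0.0095), a call that was lost without day 5 (adjusted p = 0.075) or without day 7 (adjusted p = 0.098).

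In the transition zone, Tmem67 (meckelin; gene ID 329795, chr4:12039355-12090020), a membrane receptor of the gate, fell most. BM had 3.56, 4.75, 4.62 and 4.07 FPKM and C had 3.40, 4.88, 4.16 and 4.10 on days 1, 3, 5 and 7. B had 2.53, 2.71, 0.91 and 0.96, and BC had 2.77, 3.97, 1.15 and 0.73. BC on day 3 lay within the range without bFGF, and every other library with bFGF lay below it. The log2 fold change was -1.001 (SE 0.21, adjusted p = 0.0014). Mks1, Cc2d2a and Tctn2, other components of the gate, also fell (-0.78, -0.62 and -0.53). Cep290, Nphp4, Tctn1, Tctn3 and Tmem216 were not called, with Cep290, which links the gate to the microtubules, at 0.23 (SE 0.10).

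The rises were few. Ttc26 (IFT56; gene ID 264134, chr6:38381464-38427647), a peripheral IFT-B subunit, had 3.33, 2.58, 2.05 and 2.27 FPKM in BM and 4.27, 2.45, 1.80 and 2.12 in C on days 1, 3, 5 and 7. It had 3.76, 3.72, 3.58 and 2.49 in B and 3.72, 3.42, 3.99 and 2.64 in BC. On day 1 no difference was called (0.07, SE 0.14), and the cultures without bFGF then fell (-0.78, SE 0.11), which gave a log2 fold change of 0.71 (SE 0.16, adjusted p = 0.0022). Tmem231, a transition zone membrane protein, stood at 12.4, 9.82, 9.92 and 9.85 FPKM in BM and 11.9, 10.5, 8.86 and 9.20 in C. It stood at 10.8, 13.3, 14.9 and 12.2 in B and 11.46, 13.4, 15.96 and 12.8 in BC, with a log2 fold change of 0.63 (SE 0.14, adjusted p = 0.0020). On each of days 3, 5 and 7, both libraries with bFGF were above both without it in Ttc26 and Tmem231, and on day 1 Tmem231 was lower in both.

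Ift57, an IFT-B subunit, rose by a log2 fold change of 0.46 (SE 0.09, adjusted p = 8.8e-04), with 9.01 to 12.1 FPKM with and 7.99 to 9.75 FPKM without bFGF. In log2(FPKM + 1), which carries no TMM factor, B over BM and BC over C differed by 0.02 to 0.29 on each day. The call over days 1 to 7 was lost in limma on log2(FPKM + 1). Those on days 5 and 7 were lost with library totals and in limma on log2(FPKM + 1) and log2(FPKM + 0.1). Arl13b, a small GTPase of the ciliary membrane, was called at 0.25 (SE 0.10, adjusted p = 0.032), but its FPKM overlapped (3.15 to 8.48 with, 4.15 to 6.31 without). Its fold change turned to -0.03 with library totals, and the call was lost in 15 further alternatives, so no direction is given for it.

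More of the cilium genes were called on the later days, as were more of all tested genes. On day 1, 2 of 43 cilium genes were called, Wdr19 and Ift74, both lower, where 10.7% of all tested genes were called (6.21% higher and 4.46% lower). On day 3, 11 were lower and 4 higher (25.0% and 25.4% of all genes, 50.4% together). On day 5, 29 were lower and 4 higher (38.6% and 37.2%, 75.8% together), and on day 7, 28 were lower and 7 higher (39.6% and 38.8%, 78.4% together). Their median log2 fold change went from -0.15 on day 1 and -0.19 on day 3 to -0.55 on day 5 and -0.48 on day 7. On both day 5 and day 7, 26 genes were lower and 3 were higher (Ift57, Tmem231 and Ttc26). With library totals the day 7 split was 33 lower and 1 higher (Tmem231), beside 6650 lower and 2467 higher among all genes, and Bbs4, Ift52 and Tctn3 turned. In FPKM, which carries no TMM factor, the libraries with bFGF lay below all those without it on days 5 and 7 in 33 of 43 genes (53.5% of all genes) and above in 2, Tmem231 and Ttc26 (18.4%). On day 1 alone the 2 libraries lay below in 23 genes (34.5%) and above in 4 (24.0%), and on day 3 below in 23 (42.7%) and above in 5 (27.9%). The count called on day 1 went to 0 without BC day 1 and to 5 without B day 3, and to 1 without BM, B or C day 1.

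The day itself was tested in the same fit. The bFGF effect on days 3 to 7 was lower than on day 1 in 20 cilium genes and higher in 5, where 33.2% and 28.9% of all genes were called in those directions and 62.1% in either. The 5 genes with the smallest p were Bbs10 (log2 difference of effects -2.71, SE 0.32), Ttc8 (-1.77, SE 0.22), Tmem231 (0.90, SE 0.11), Bbs12 (-1.99, SE 0.30) and Ift88 (-1.40, SE 0.21), with adjusted p of 1.8e-05 to 1.4e-04. A further test, added after the daily values were seen, compared days 5 and 7 with day 3. The effect was lower in 21 cilium genes and higher in 6, against 29.3% and 26.2% of all genes (55.4% together), with a median difference of -0.36 in the cilium genes and -0.02 in all genes. Under library totals 32 were lower and none was higher.

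Proliferation genes were all called from day 3. All 16 genes of a G2/M and proliferation list, among them Mki67, Top2a, Cdk1 and Ccnb1, were higher with bFGF on days 3, 5 and 7, with medians of 2.03, 2.73 and 3.12 on the log2 scale, and 0 were called on day 1 (edgeR; 0 had an unadjusted p under 0.05, and the median was 0.03). The list was chosen with the proliferation result of these libraries known, so its direction is not independent evidence. Anln (2.64, SE 0.48) and Ube2c (2.81, SE 0.52) rose most over days 1 to 7. Mki67, which marks cycling cells, was at 76.1 FPKM in BM on day 1 and at 8.34, 12.4 and 9.84 on days 3, 5 and 7. In B it was at 74.3 FPKM on day 1 and at 33.7, 26.3 and 35.3 afterwards. On day 3 all 16 were thus called, when 15 of 43 cilium genes were called and their median difference was -0.19; the difference in timing between the lists was not tested.

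**Figure D3:**
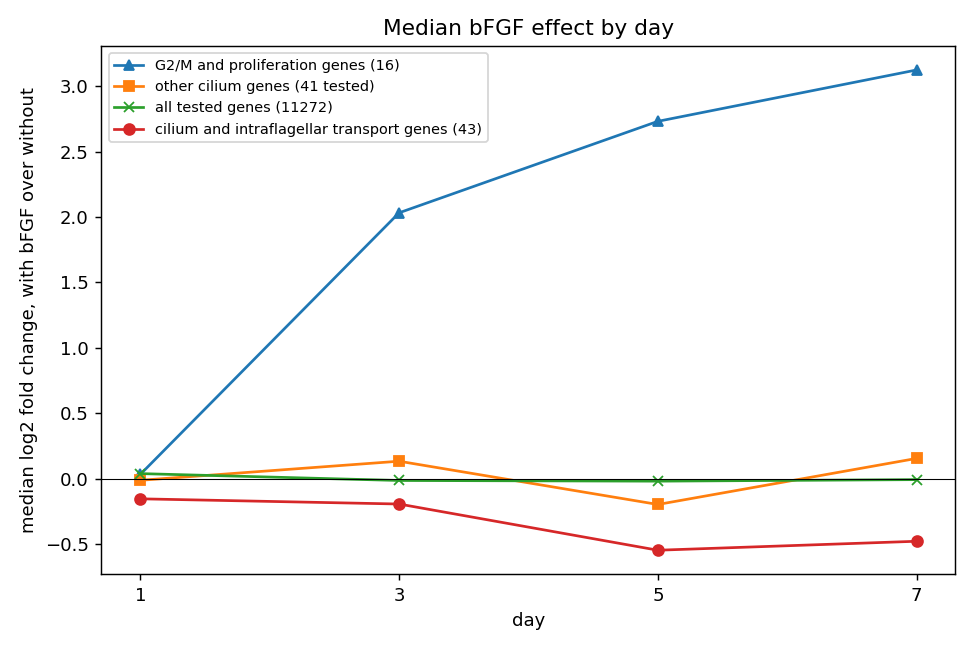
Median log2 fold change, B and BC over BM and C (y axis), by day (x axis) for the 43 cilium and IFT genes, 41 tested genes of a second cilium list, 16 G2/M and proliferation genes and all 11272 tested genes. The proliferation genes stand at 0.03 on day 1 and 2.03 on day 3, whereas the cilium and IFT genes stand at -0.15, -0.19, -0.55 and -0.48 on days 1, 3, 5 and 7.

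The change over days was then followed separately in the cultures without and with bFGF, which share no library. Without bFGF, all 16 proliferation genes fell from day 1 to days 3 to 7 (median -2.94), and the cilium genes were mixed: 17 rose and 10 fell, with a median of 0.18. Of all genes, 71.6% were called, 37.0% as rises and 34.7% as falls. Without BM day 1 these counts were 13 and 6. With bFGF, 5 of the 16 proliferation genes fell, 2 rose and 9 were not called (median -0.24). In the same cultures 20 cilium genes fell and 9 rose (40.3% and 35.9% of all genes, 76.2% together), with a median of -0.27. With library totals those counts were 26 and 6, beside 5927 and 2788 among all genes. In several of the genes that differed most, a fall in B and BC made up the larger part of the late difference, as in Bbs12 (0.26, SE 0.21, without and -1.73, SE 0.21, with bFGF), Ttc8 (0.33, SE 0.14, and -1.44, SE 0.16) and Ift88 (0.27, SE 0.15, and -1.12, SE 0.16). Bbs10 moved both ways (0.89, SE 0.18, and -1.82, SE 0.26).

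The genes that rose without bFGF were spread over the groups: 3 of 14 in IFT-B, 3 of 6 in IFT-A, both dynein-2 genes, 4 of 7 in the BBSome, Bbs10, and 4 of 10 in the transition zone. In BM alone, between day 1 and day 7, Bbs4 and Bbs1 rose most. Bbs4, which ties the BBSome to centriolar satellites, went from 2.57 to 5.71, 5.58 and 6.93 FPKM in BM and from 2.67 to 6.73, 6.87 and 6.98 in C. It also rose in B, from 1.72 to 4.49, 5.64 and 7.32, and in BC, from 2.40 to 4.75, 4.74 and 5.64. Its rise from day 1 was 1.31 (SE 0.16) without and 1.71 (SE 0.17) with bFGF, a difference that did not pass the test (0.40, SE 0.23, adjusted p = 0.14). Tctn1, a transition zone gene of the Hedgehog pathway, rose in both (0.75, SE 0.14, and 1.35, SE 0.15), and more with bFGF (0.60, SE 0.20, adjusted p = 0.021). The call of that difference depended on the scaling. It was lost with library totals, in limma on log2(FPKM + 1) and on log2(FPKM + 0.1), and without day 5.

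The largest falls in BM were those of Ttc21b and Ttc26. Ttc21b (IFT139) was at 9.29, 7.21, 6.50 and 6.43 FPKM in BM on days 1, 3, 5 and 7, and at 11.3, 5.70, 5.41 and 6.27 in C. It was at 10.8, 8.18, 4.07 and 4.40 in B and 9.78, 8.90, 3.86 and 4.03 in BC. The log2 change from day 1 was -0.72 (SE 0.10) without and -0.70 (SE 0.10) with bFGF, so it fell in all 4 treatments. Cep290 and Bbs5 also fell in both, by -0.65 and -0.61 and by -0.37 and -0.55.

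**Figure D4:**
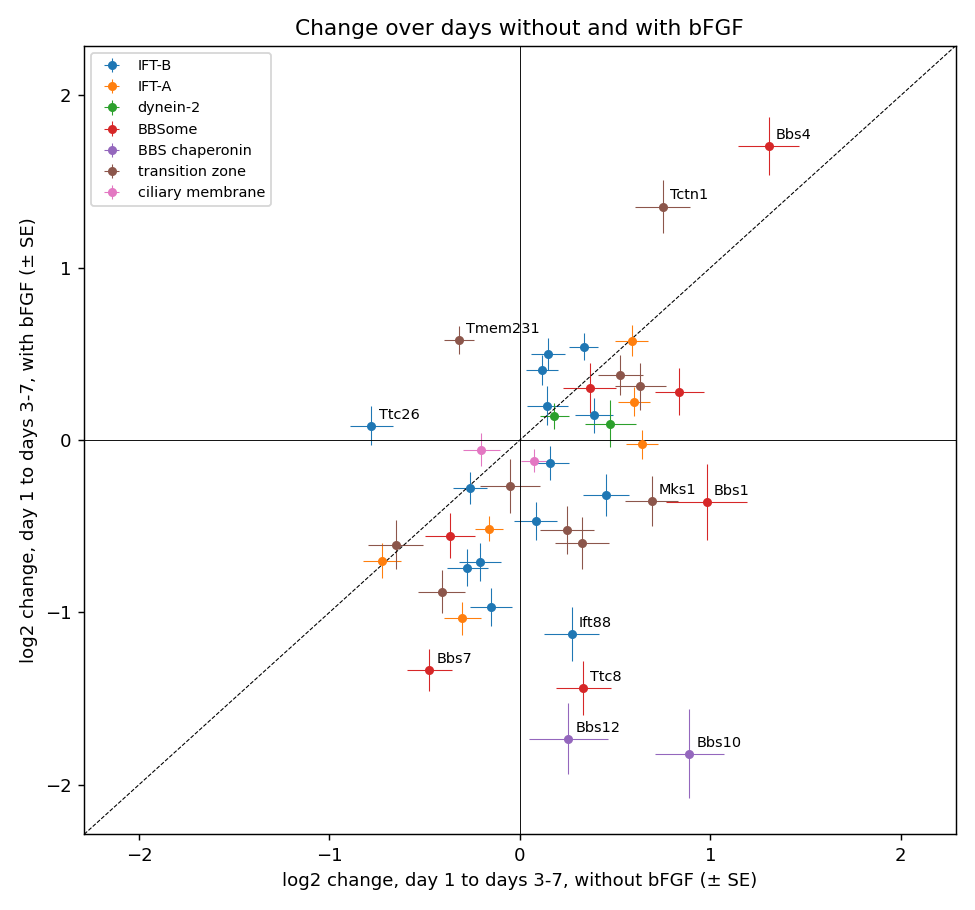
Log2 change from day 1 to days 3 to 7 without bFGF (x axis) and with it (y axis) for the 43 cilium genes, with SE bars from the edgeR fit, coloured by functional group, and the line of equal change dashed. Bbs10, Bbs12, Ttc8 and Ift88 lie at the lower right, at -1.12 to -1.82 with bFGF, while Bbs4 and Tctn1 lie at the upper right and Tmem231 and Ttc26 above the line on the left.

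Most cilium genes were above the day 0 library in each library without bFGF. In the 8 libraries without bFGF, 33 to 38 of the 43 were above day 0 in log2(FPKM + 1), with medians of 0.45 to 0.74, where the median of all tested genes was 0.13 to 0.19. With bFGF on days 1 and 3, 30 to 36 were above, with medians of 0.22 to 0.46. On days 5 and 7 in B and BC, 25 to 29 were below, with medians of -0.28 to -0.15, where the median of all tested genes was -0.33 to -0.24. At a difference of at least 1 on that scale, 4 to 13 genes were higher and 0 lower in each library without bFGF, and 3 were higher and 6 to 10 lower in each of the late libraries with it. Of all tested genes, 7.06 to 22.3% were that much higher and 1.76 to 15.3% lower without bFGF, and 11.7 to 12.5% were higher and 23.1 to 25.6% lower in the late libraries with it, so the cilium genes that were lower there, at most 10 of 43, made up a share near or under that of all genes. There was 1 day 0 library, so these values have no replicate check.

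**Figure D5:**
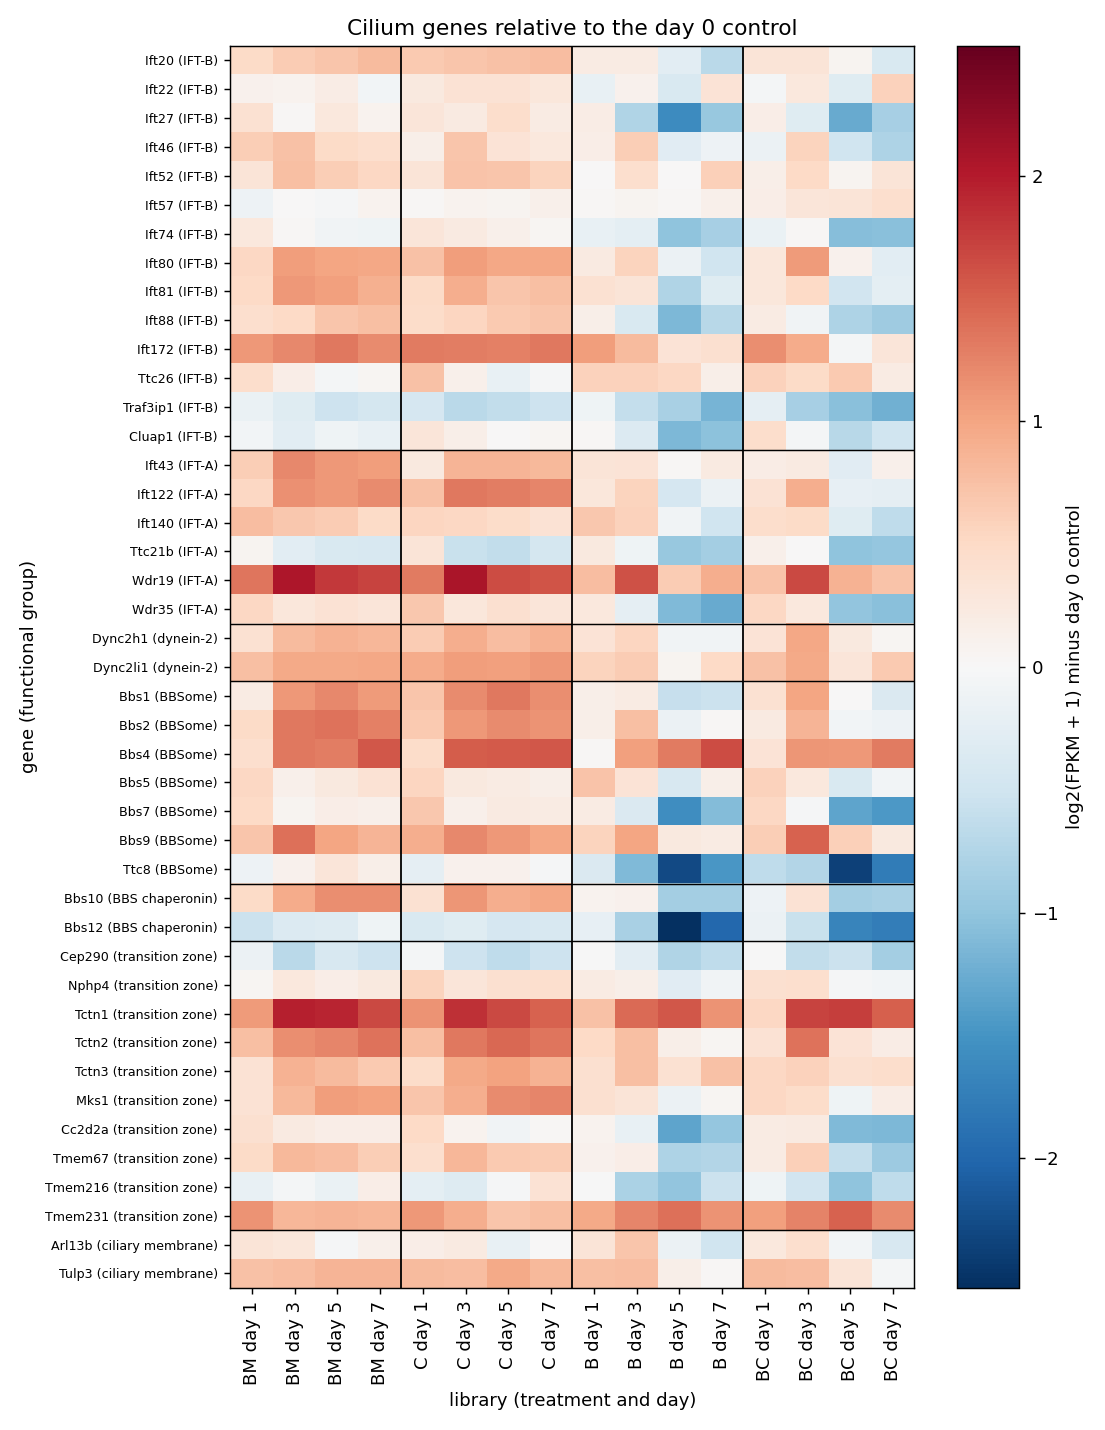
Difference in log2(FPKM + 1) from the single day 0 library (colour, red higher and blue lower) for the 43 cilium genes (rows, by functional group) in the 16 cultured libraries (columns, by treatment and day). BM, C and the early B and BC columns are mostly red, with medians of 0.22 to 0.74, and the 4 columns of B and BC on days 5 and 7 have medians of -0.28 to -0.15, with Bbs12 and Ttc8 the darkest blue.

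CHIR99021 was not seen to move the cilium genes. None of the 43 was called for it in edgeR, where 0.337% of all genes were called (0.0532% higher and 0.284% lower). An unadjusted p under 0.05 was reached by 6 of the 43 and by 9.99% of all genes. DESeq2 called 1, Cluap1, an IFT-B subunit (log2 fold change 0.40, SE 0.11, adjusted p = 0.029). In edgeR that gene stood at 0.40 (SE 0.12, adjusted p = 0.20). The log2 fold changes of the 43 genes ran from -0.25 (Ift46, SE 0.08) to 0.52 (Bbs1, SE 0.27), so small effects of CHIR99021 remain possible, and a p that misses the threshold does not show that C acts like BM.

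Other genes of the cilium were called about as often as all tested genes in each direction over days 1 to 7. A second list of 46 cilium genes held 41 that were tested, with 14 higher and 14 lower with bFGF and a median log2 fold change of 0.07. That is 34.1% each way, against 34.6% higher and 33.9% lower among all tested genes. On day 5, 13 were higher and 17 lower (37.2% and 38.6% of all genes), and on day 7, 16 and 13 (38.8% and 39.6%). The largest falls in it were Ttc30b, an IFT-B subunit (-2.65, SE 0.62, median 4.85 FPKM without and 0.84 FPKM with bFGF), and Invs, which defines the proximal cilium (-1.46, SE 0.32). Ttc30b has near-identical copies, Ttc30a1 and Ttc30a2, between which reads could be split, and it has 1 exon. The largest rises were Tmem107, a transition zone protein (0.95, SE 0.22), and Iqcb1, a partner of Cep290 (0.89, SE 0.20). No difference between the 2 lists was tested.

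Of the genes that take down or cap the cilium, more were higher than lower with bFGF. Of 15 tested genes of that list 9 were higher and 2 lower with bFGF over days 1 to 7, where 34.6% of all tested genes were higher and 33.9% lower. On day 1, 0 were higher and 2 lower (6.21% and 4.46% of all genes), and on day 3, 9 and 2 (25.4% and 25.0%). All 16 proliferation genes were higher on day 3 too. How far the rises in the disassembly list go with cell division was not tested. Aurka, the kinase that starts disassembly, was at 58.3, 7.56, 10.6 and 10.6 FPKM in BM and at 62.9, 40.2, 70.8 and 71.4 in B on days 1, 3, 5 and 7 (log2 fold change 2.25, SE 0.39). Nek2 (2.10, SE 0.37) and Plk1 (1.53, SE 0.28) were also higher, and all 3 kinases also act in mitosis. The Aurka activator Nedd9 was lower (-1.50, SE 0.16), and so was the centriole gene Cenpj (-1.41, SE 0.29). Hdac6, the tubulin deacetylase (0.03, SE 0.06), and the capping gene Ccp110 (-0.05, SE 0.08) were not called.

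Of 9 tested Hedgehog genes, 5 were lower and 0 higher with bFGF over days 1 to 7, where 33.9% of all genes were lower, and on day 3 4 were lower and 2 higher. The 5 were the co-receptor genes Gas1 (-2.76, SE 0.42), Cdon (-1.32, SE 0.23) and Boc (-1.15) and the signalling genes Sufu (-0.85) and Smo (-0.40). Gas1 had a median of 234 FPKM without and 23.3 FPKM with bFGF. The target genes of the pathway gave little: Ptch1 was not called (-0.13, SE 0.10), Gli1 never passed 0.52 FPKM, and the ligand genes Shh, Ihh and Dhh never reached 1 FPKM.

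Genes of motile cilia were at low levels. Of 22, 2 passed the filter: Ccdc39, an assembly factor of motile axonemes, was lower with bFGF (-1.79, SE 0.29), and Rsph9 was not called. Foxj1, the regulator of motile ciliogenesis, was between 0.04 and 0.87 FPKM and was not tested. Of 8 tested regulators of ciliogenesis, 3 were higher and 3 lower with bFGF, where 34.6% and 33.9% of all tested genes were. Of the RFX factors, which bind X-box sequences in promoters of ciliary genes, Rfx2 (-0.51, SE 0.17) and Rfx7 (-0.57, SE 0.14) were lower and Rfx3 was not called (-0.10, SE 0.09). Rfx5 had 13.18 to 15.55 FPKM without and 7.03 to 14.6 FPKM with bFGF, and Rfx1 had 6.55 to 10.15 FPKM and 4.25 to 10.37 FPKM. Ccno, a regulator of centriole amplification, was higher (2.15, SE 0.26), from a median of 0.40 to 1.505 FPKM, and so was E2f5 (0.69, SE 0.10).

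Promoters of the cilium genes were searched for the X-box. RefSeq promoters of GRCm38.p6, 250 bases before to 50 after each start, were matched by symbol to 38 of the 43 genes. The searched form was the half-site GTTNCC followed, after 1, 2 or 3 bases of any kind, by GGNAAC, and it reads the same on both strands. It was found in 6 of 38 cilium genes (15.8%), in 4 of 41 matched genes of the second cilium list (9.76%) and in 0.903% of all 27025 genes with a promoter. The half-site GTTGCC, on either strand, was in 19 of the 38 and in 14.1% of all genes, and it overlaps the full forms. The 6 matches are printed 5′ to 3′ on the strand of the gene, with the X-box in capitals, to show the feature behind these counts.
Ttc26, chr6:38381483-38381512, + strand: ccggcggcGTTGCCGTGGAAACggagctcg
Bbs7, chr3:36613489-36613518, - strand: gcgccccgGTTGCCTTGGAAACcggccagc
Mks1, chr11:87853183-87853212, + strand: gcgtctccGTTGCCAGGGGAACgaggcacc
Tctn1, chr5:122264411-122264432, - strand: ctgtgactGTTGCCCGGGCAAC
Ift57, chr16:49699226-49699254, + strand: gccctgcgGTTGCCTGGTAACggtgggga
Tctn3, chr19:40612351-40612379, - strand: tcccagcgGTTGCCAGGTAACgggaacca

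Relative to the start of the promoter record, the X-box began 24 to 140 bases before it in 5 of these genes and 37 bases after it in Tctn1. That start can differ from the first base of the annotated gene, and by the gene bounds used here the windows of Ttc26, Mks1 and Tctn1 lie inside the gene, that of Bbs7 spans its edge, and those of Ift57 and Tctn3 lie outside. The 6 genes did not share a direction with bFGF. Bbs7 (-0.78) and Mks1 (-0.78) were lower, Ttc26 (0.71) and Ift57 (0.46) were higher, and Tctn1 (-0.05) and Tctn3 (0.04) were not called. Mks1 had 1.49 to 3.57 FPKM without and 0.75 to 1.79 FPKM with bFGF, and Bbs7 had 7.97 to 12.6 FPKM and 1.87 to 11.2 FPKM.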

How the data were processed

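RNA of mNRPCs was sequenced by the authors on the BGISEQ-500 platform in 17 libraries. The authors' methods name Bowtie 2 and eXpress, while the submitters' processing notes name Bowtie2, RSEM and mm10; versions were not given in the sources used here, nor was strand. Per gene, the files deposited by the authors hold the expected count, the FPKM and the isoform-weighted transcript length. Genes not listed in a library were read as 0.

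Expected counts were rounded and tested with edgeR 4.0.16 (quasi-likelihood test, TMM scaling, R 4.3.3) on the 11272 genes whose FPKM averaged 1 or more in the 16 cultured libraries, with Benjamini-Hochberg adjustment over all of them and a threshold of 0.05. The model for days 1 to 7 held day, bFGF and CHIR99021; a second held a bFGF effect for each day. The biological coefficient of variation was 24.7% and 10.0%. Day 0 entered no test. Both fits were tried on simulated counts. DESeq2 1.42.0, limma 3.58.1, other scalings and filters, and each library or day left out were the alternatives. The FPKM alternatives used log2(FPKM + 1) and log2(FPKM + 0.1). Although the rule used no measured value, the genes and lists were chosen with earlier results of these data known. All 43 genes were counted. Values are given for the called gene with the largest rise and fall in each group, the 5 with the smallest p for days 3 to 7 against day 1, the 2 with the largest rise and fall in BM, the 2 largest called changes each way of each other list, and a few fixed genes; further genes were named after their values were seen.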

Additional observations from a re-analysis of the deposited data

Results flagged for a closer look

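The bFGF effect differed between days 3 to 7 and day 1 in 25 of the 43 cilium genes (edgeR interaction test, adjusted p under 0.05), where 62.1% of all tested genes did. The share of cilium genes was thus no higher than that of all genes. Among the genes described with their values, the log2 difference of the effect was -2.71 for Bbs10, -1.99 for Bbs12, -1.77 for Ttc8, -1.40 for Ift88, -1.34 for Bbs1, -0.92 for Tmem67 and -0.66 for Ift122. It was positive for Tmem231, at 0.90, and for Ttc26, at 0.86. Each treatment and day had 1 library, so outliers within a group were not looked for.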

How the results depend on the processing

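Replicates could not be paired, because each treatment and day has 1 library. The libraries of a day were compared with day as a term of every fit. B with BM and BC with C on each day were not tested as pairs. With a minimum mean FPKM of 5, 28 of the 43 genes were tested, and fewer could be called: 19 (17 lower) for bFGF over days 1 to 7, 16 (13 lower) for days 3 to 7 minus day 1, 17 (6 lower) for the change without bFGF, 12 lower for the change with bFGF, 7 lower on day 3, and 22 (18 lower) on day 7. On day 3, limma on log2(FPKM + 1) and on log2(FPKM + 0.1) called 17 lower. For days 5 and 7 minus day 3, library totals gave 32 lower, and limma gave 32 and 33. For CHIR99021, DESeq2 called 1 cilium gene, and 2.49% of all genes against 0.337%. The cause of these shifts was not tested.

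With 1 library left out, the genes called (and those lower) numbered 25 to 30 (22 to 26) for bFGF over days 1 to 7, 0 to 0 for CHIR99021, 17 to 27 (14 to 23) for days 3 to 7 minus day 1, 19 to 30 (6 to 12) for the change without bFGF, 24 to 31 (16 to 21) for the change with it, 0 to 5 (0 to 5) on day 1, 11 to 20 (8 to 15) on day 3, 30 to 34 (26 to 30) on day 5, 29 to 35 (23 to 28) on day 7, and 20 to 27 (18 to 23) for days 5 and 7 minus day 3.

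Of 593 values of named cilium genes under alternatives, 543 kept direction and call, 27 kept direction and lost the call (Arl13b, Bbs12 and Dync2h1), 1 gained it and 22 turned. Those that turned were of 3 genes, of which Ttc21b and Bbs4 were not called over days 1 to 7: Arl13b (-0.033 with library totals, -0.0384 and -0.0541 in limma), Ttc21b (-0.20 with library totals, -0.0204 with upper quartile, -0.15 and -0.19 in limma, -0.0777 without day 3) and Bbs4 (-0.28 with library totals, -0.10 with upper quartile, -0.0641 at 5 FPKM, -0.23 and -0.28 in limma, -0.0654 without day 5, -0.14 without day 7, and -0.0698 to 0.0686 with 1 library left out). Bbs10 had 4 or 5 expected counts in late bFGF libraries, which limits the size of its fall.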

Other observations

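The quantification's transcript length, which weighs the isoforms found, varied by more than 1.2 times over the libraries in 4 of the 43 cilium genes (Bbs12, Ift43, Wdr19 and Ift22), or 9.3%, against 9.87% of all tested genes. For Wdr19 it was 5421 to 5977 bases without bFGF and 4820 to 5166 bases on days 5 and 7 with it. For Ift43 the 2 groups overlapped.

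Over the 43 genes, the log2 fold change with bFGF over days 1 to 7 and the transcript length had a Spearman rho of -0.02, and over all tested genes it was -0.19. On day 7 the values were -0.19 and -0.28. These are descriptions across genes, which share the same libraries.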
